A study of Mus musculus with 9 samples.

Results

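The interleukin-1 (IL-1) system was examined through 6 genes chosen by name: the ligand genes Il1a and Il33, the antagonist gene Il1rn, and the receptor chain genes Il1r1, Il1rap and Il1rl1. Of these 6, 5 were rows of the table of 12339 genes. Il1rl1 was not analysed here. RNA came from GFP-positive mouse tumour cells (KP-GFP, labelled with the C57BL/6 strain) sorted from spheroids, which are rounded cell aggregates grown without attachment to plastic. Tumour cells had been grown with TRMs (tissue-resident macrophages of the lung, that is alveolar macrophages), with bone-marrow monocytes, or alone, with 3 libraries in each group. Every spheroid started from 2500 tumour cells, with 5000 macrophages or monocytes in the co-cultures, and was kept for 7 days. Each condition pooled 32 spheroids. The sources used here give no age or sex of the cell donors, and do not say whether the KP-GFP cells are 1 clone or whether replicates are separate cultures. The p-values below therefore measure the spread between these libraries, which may be technical.

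IL-1 signalling begins when a ligand binds the receptor chain IL-1R1, which then recruits the accessory protein IL-1RAP and, through the adaptor MyD88 and the IRAK kinases, activates NF-kappaB and MAP kinases. IL-1 alpha, the product of Il1a, is made as a precursor that can signal when released from damaged cells and is further activated by calpain proteases. The antagonist encoded by Il1rn occupies IL-1R1 without recruiting IL-1RAP. IL-33 is a nuclear protein released from damaged epithelium that signals through ST2, the product of Il1rl1, paired with the same IL-1RAP. In the mouse lung, IL-33 is made mainly by alveolar epithelial type 2 cells.

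Levels are in CPM, a count scaled to the size of its library: the deposited reads with 0.5 read added, over a library size adjusted for composition. Libraries held 16001895 to 32771448 reads. Mitochondrial transcripts took 0.288% to 0.667% of reads. Every analysed member was above the filter on low values (0.468 CPM) in all 9 libraries. Differences are log2 ratios from limma, adjusted by the Benjamini-Hochberg method over 12326 genes, and a gene was called at an adjusted p under 0.05. In bulk RNA, a change in the share of cells that express a gene and a change in RNA per cell cannot be told apart.

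Epithelial markers matched the labelled tumour cells: 8 of 10 listed genes were analysed, and they summed to 15234 to 19092 CPM with TRMs, 10431 to 16404 CPM with monocytes and 15159 to 16976 CPM alone. The lung epithelial markers Nkx2-1 and Sftpc were not analysed here. Macrophage and monocyte markers summed to 178 to 328 CPM with TRMs, 192 to 254 CPM with monocytes and 166 to 252 CPM alone, over the 16 of 32 listed genes that were analysed. Of these 16, 11 averaged under 5 CPM, and 4 (Ptprc, Siglecf, Itgam and Itgax) had a library with 0 reads. Adgre1, Marco and the C1q genes, further macrophage markers, were not analysed here. Ptprc, the leukocyte antigen CD45, averaged 1.95 CPM with TRMs, 0.241 CPM with monocytes and 1.93 CPM alone. The other 5 were Cd14, Lyz2, Chil3, Mrc1 and F13a1. Cd14, the lipopolysaccharide co-receptor, gave the largest part of the sum, at 128 ± 65.1 CPM with TRMs, 123 ± 37.6 CPM with monocytes and 166 ± 55.8 CPM alone, and Lyz2, lysozyme, averaged 47.3 ± 31.1, 21.8 ± 7.71 and 22.3 ± 14.0 CPM in the same groups (SD, n = 3 each). Neither Cd14 nor Lyz2 was called. Limma called 2 of the 16 with TRMs, both higher (12.5%), and 5 with monocytes, 2 higher and 3 lower (31.2%), where 18.4% and 27.3% of all 12326 genes were called. The 2 higher genes were the same in both comparisons. They were Mrc1, the macrophage mannose receptor, at 32.9 ± 9.27 CPM with TRMs, 39.2 ± 7.49 CPM with monocytes and 5.12 ± 0.211 CPM alone, and F13a1, a subunit of coagulation factor XIII, at 13.4 ± 3.82, 13.4 ± 5.38 and 0.96 ± 0.303 CPM in the same groups (SD, n = 3 each). Both genes were higher in both co-cultures (limma adjusted p at most 4.14e-05). The 3 lower with monocytes than alone were Chil3, a chitinase-like protein (0.766 ± 0.443 CPM against 10.1 ± 6.17 CPM), Ptprc, and Siglecf, a lectin of alveolar macrophages (0.121 ± 0.0839 CPM against 1.44 ± 0.371 CPM; SD, n = 3 each; limma adjusted p = 0.00659, 0.0361 and 0.0413). The calls of Ptprc and Siglecf were lost without at least 1 library, and those of Chil3 and Ptprc in voom. Mcpt8, a basophil protease, rose too, to 85.2 ± 14.6 CPM with TRMs and 64.0 ± 25.6 CPM with monocytes, against 13.9 ± 3.98 CPM alone (SD, n = 3 each, limma adjusted p = 4.16e-05 and 0.000123). Gata3 and Areg, the other 2 analysed genes of the 13 on its list, were not called. The part of added cells in the member results below was not tested.

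Sequences just upstream of 4 members are shown because these genes share a pathway but were called differently: Il1a higher, Il33 and Il1r1 lower, and Il1rn not called. Il1a and Il1rn lie on chromosome 2, Il33 on chromosome 19 and Il1r1 on chromosome 1 (mm10). The RefSeq stretches (GRCm38.p6) at the first listed start of each gene run from 150 bases before the transcription start to 25 bases after it. Capitals mark matches on either strand to TGANTCA (an AP-1-like motif), GGG, any 5 bases and CC (NF-kappaB-like) or ACGTG (hypoxia-response-like).
Il1a, chr2:129309948-129310122, minus strand: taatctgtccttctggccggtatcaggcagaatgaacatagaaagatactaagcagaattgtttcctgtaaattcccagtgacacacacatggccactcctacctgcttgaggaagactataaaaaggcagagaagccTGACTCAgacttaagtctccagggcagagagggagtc
Il1rn, chr2:24336710-24336884, plus strand: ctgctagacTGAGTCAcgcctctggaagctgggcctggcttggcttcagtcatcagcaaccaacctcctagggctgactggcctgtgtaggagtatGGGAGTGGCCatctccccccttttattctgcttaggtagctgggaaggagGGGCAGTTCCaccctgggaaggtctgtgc
Il1r1, chr1:40224930-40225104, plus strand: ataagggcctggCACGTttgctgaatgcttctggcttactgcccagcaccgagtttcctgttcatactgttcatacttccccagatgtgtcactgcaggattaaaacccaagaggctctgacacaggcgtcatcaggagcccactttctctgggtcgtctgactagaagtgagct
Il33, chr19:29924963-29925137, plus strand: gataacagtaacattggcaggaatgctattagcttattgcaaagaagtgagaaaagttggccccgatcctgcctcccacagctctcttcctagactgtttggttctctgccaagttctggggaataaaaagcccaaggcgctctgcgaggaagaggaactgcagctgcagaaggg
Il1a held an AP-1-like match 12 to 6 bases before its start. Il1rn held one 141 to 135 bases before its start, and NF-kappaB-like matches 54 to 45 bases before it and across it. In Il1r1 there was a hypoxia-response-like match 138 to 134 bases before the start. Start 2 of Il1r1, not shown, held an NF-kappaB-like match 232 to 223 bases before it. Starts 2 and 3 of Il1rn, also not shown, held NF-kappaB-like matches too. The first RefSeq start of Il33 had no match in the full window searched, from 250 bases before to 50 after. Among 32851 RefSeq promoters of that length, 7.81% held TGANTCA, 50.8% the NF-kappaB-like motif and 19.6% ACGTG, so the NF-kappaB-like letters were the commonest. The searched motifs did not overlap each other in these 4 windows.

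The ligand gene Il1a was higher in both co-cultures, and more so with TRMs. It lies on the minus strand at chr2:129299610-129309972 (mm10). Il1a stood at 263, 238 and 223 CPM in TRM co-culture replicates 1 to 3. In the monocyte co-culture it stood at 76.9, 109.8 and 106 CPM, and in tumour cells alone at 44.7, 47.8 and 41.8 CPM. The 3 groups did not overlap: the lowest TRM library was above every monocyte library, and the lowest monocyte library was above every library of tumour cells alone. Il1a averaged 241 ± 20.6 CPM with TRMs and 44.8 ± 2.96 CPM alone (SD, n = 3 each), a 5.39-fold rise (log2 2.43, SE 0.15, 95% interval 2.10 to 2.76, limma adjusted p = 7.5e-07). Among 12326 genes, this was the 8th smallest p-value in that comparison. With monocytes Il1a averaged 97.6 ± 18.1 CPM (SD, n = 3), a 2.16-fold rise over tumour cells alone (log2 1.11, 95% interval 0.78 to 1.44, limma adjusted p = 0.000231). Both rises held when any single library was left out (limma adjusted p at most 1.58e-05 with TRMs and 0.00199 with monocytes). Il1a was also 2.497-fold higher with TRMs than with monocytes (log2 1.32, 95% interval 0.99 to 1.65, limma adjusted p = 0.00573). That difference had the smallest p-value of all genes between the co-cultures. Without TRM replicate 2 its adjusted p was 0.0509, and the difference was then log2 1.33. The exons of Il1a share 222 bases with Gm14023 on the opposite strand. No source used here says that the libraries keep strand, so a read in the shared bases could belong to either gene.

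Il33, the second ligand gene, was lower with monocytes and did not pass the test with TRMs. It lies at chr19:29925114-29960718 on the plus strand. It stood at 21.6, 14.8 and 15.5 CPM with TRMs, at 3.86, 13.1 and 12.9 CPM with monocytes, and at 32.6, 24.0 and 27.4 CPM alone. All 6 co-culture libraries lay below all 3 libraries of tumour cells alone, and monocyte replicate 1 was the lowest of the 9. With monocytes Il33 averaged 9.96 ± 5.28 CPM against 27.99 ± 4.32 CPM alone (SD, n = 3 each), 3.20-fold lower (log2 -1.68, 95% interval -2.502 to -0.85, limma adjusted p = 0.00574). Il33 remained lower with monocytes when any single library was left out (limma adjusted p at most 0.0255). Without monocyte replicate 1 the difference was log2 -1.09. That library also had the lowest mitochondrial share, 0.288%. With TRMs Il33 averaged 17.3 ± 3.70 CPM (SD, n = 3), and the difference from tumour cells alone did not pass the test (log2 -0.70, 95% interval -1.53 to 0.12, limma adjusted p = 0.233). It did pass when monocyte replicate 1 was left out (limma adjusted p = 0.0278) or when limma was fitted to the TRM and alone libraries only (adjusted p = 0.0274). Il33 was not called between TRM and monocyte co-cultures (log2 0.97, 95% interval 0.15 to 1.80, limma adjusted p = 0.327).

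The antagonist gene Il1rn was not called in any comparison. Il1rn lies at chr2:24336853-24351494 on the plus strand. Its level was 128, 92.3 and 64.5 CPM with TRMs, 43.5, 49.2 and 55.6 CPM with monocytes, and 61.2, 70.5 and 55.3 CPM alone. The TRM libraries spread widely: replicate 1 was the highest of all 9, whereas replicate 3 fell inside the range of tumour cells alone. Il1rn averaged 94.8 ± 31.7 CPM with TRMs and 62.4 ± 7.68 CPM alone (SD, n = 3 each; log2 0.56, 95% interval 0.10 to 1.02, limma adjusted p = 0.0894). Without TRM replicate 3 the log2 difference was 0.81 (limma adjusted p = 0.0174), and DESeq2 called the full comparison (adjusted p = 0.0437). With monocytes the average was 49.4 ± 6.01 CPM (SD, n = 3; log2 -0.33 against tumour cells alone, 95% interval -0.79 to 0.13, limma adjusted p = 0.270). All 3 TRM libraries were above all 3 monocyte libraries (log2 0.89, 95% interval 0.43 to 1.35, limma adjusted p = 0.0881), a difference that DESeq2 called (adjusted p = 0.00406).

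Il1r1, the signalling receptor, was lower in both co-cultures. The gene lies at chr1:40225080-40317257 on the plus strand. Il1r1 stood at 87.9, 81.01 and 99.7 CPM with TRMs, 109, 136 and 115 CPM with monocytes, and 196, 134 and 184 CPM alone. The TRM libraries were the 3 lowest of the 9. Monocyte replicate 2 lay just above replicate 2 of the tumour cells alone, so those groups overlapped. With TRMs Il1r1 averaged 89.5 ± 9.45 CPM against 171 ± 32.9 CPM alone (SD, n = 3 each), 1.90-fold lower (log2 -0.92, SE 0.16, 95% interval -1.28 to -0.57, limma adjusted p = 0.00177). This call held without any single library (limma adjusted p at most 0.0143). With monocytes Il1r1 averaged 120.2 ± 14.4 CPM (SD, n = 3), 1.41-fold lower than alone (log2 -0.50, 95% interval -0.85 to -0.15, limma adjusted p = 0.0366). The monocyte call was lost without alone replicate 1 (limma adjusted p = 0.156), alone replicate 3 (0.137), monocyte replicate 1 (0.103) or monocyte replicate 3 (0.0728). Between TRM and monocyte co-cultures Il1r1 was not called (log2 -0.42, 95% interval -0.78 to -0.07, limma adjusted p = 0.319).

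Il1rap, the accessory chain shared by the IL-1 and IL-33 receptors, had few reads, 44 to 82 in each library. It lies at chr16:26581704-26730117 on the plus strand, and 552 exon bases are shared with the antisense gene Gm20319. Il1rap stood at 5.16, 3.68 and 1.81 CPM with TRMs, 3.11, 3.37 and 2.42 CPM with monocytes, and 1.99, 3.51 and 1.61 CPM alone. The 3 groups overlapped. Its log2 differences were 0.54 with TRMs (95% interval -0.50 to 1.58) and 0.39 with monocytes (-0.65 to 1.43), each against tumour cells alone, and 0.15 between TRM and monocyte co-cultures (-0.89 to 1.19). None passed the test (limma adjusted p = 0.492, 0.583 and 0.949), and at this depth the intervals include changes of about 1 on the log2 scale.

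**Figure D1:**
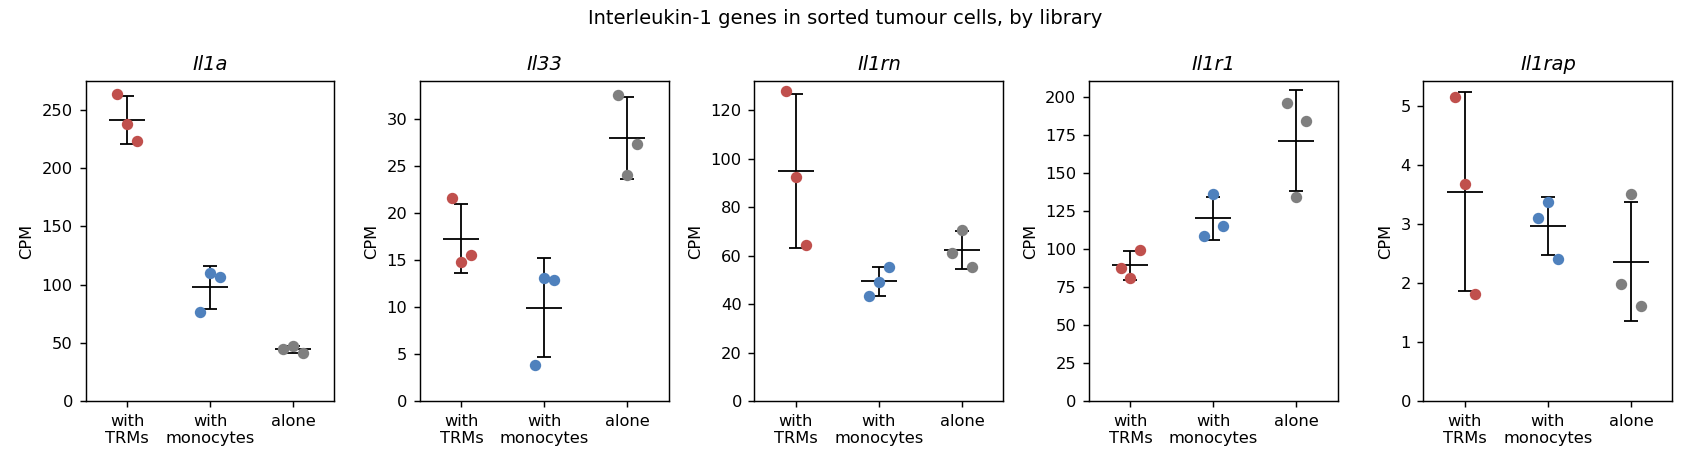
Level of each analysed IL-1 gene in the 9 libraries (CPM, 1 panel per gene, each axis from 0), with points for libraries and bars for the mean and SD of 3 libraries in the TRM co-culture, monocyte co-culture and tumour cells alone. Il1a runs from 41.8 to 263 CPM with 3 separate groups, whereas Il1rap stays between 1.61 and 5.16 CPM with overlapping groups.

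Across the 5 analysed members, TRM co-culture gave 1 gene higher (Il1a), 1 lower (Il1r1) and 3 not called, where 18.4% of all 12326 genes were called (10.2% higher and 8.15% lower). Monocyte co-culture gave 1 higher (Il1a), 2 lower (Il33 and Il1r1) and 2 not called, where 27.3% of all genes were called (14.7% higher and 12.7% lower). With TRMs against monocytes 1 member was higher (Il1a) and 4 were not called, where 0.398% of all genes were called (0.325% higher and 0.0730% lower). Groups did not overlap for 3, 2 and 4 of the 5 members in these comparisons, against 39.3%, 40.5% and 16.2% of all genes. The median log2 difference of the 5 was 0.54 with TRMs and -0.33 with monocytes against tumour cells alone, beside medians of -0.0019 and -0.016 over all genes. It was 0.89 with TRMs against monocytes, beside -0.0003 over all genes. The median was the value of Il1rap with TRMs, and that of Il1rn with monocytes and with TRMs against monocytes. Limma called neither gene. Both co-cultures were set against the same 3 libraries of tumour cells alone.

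**Figure D2:**
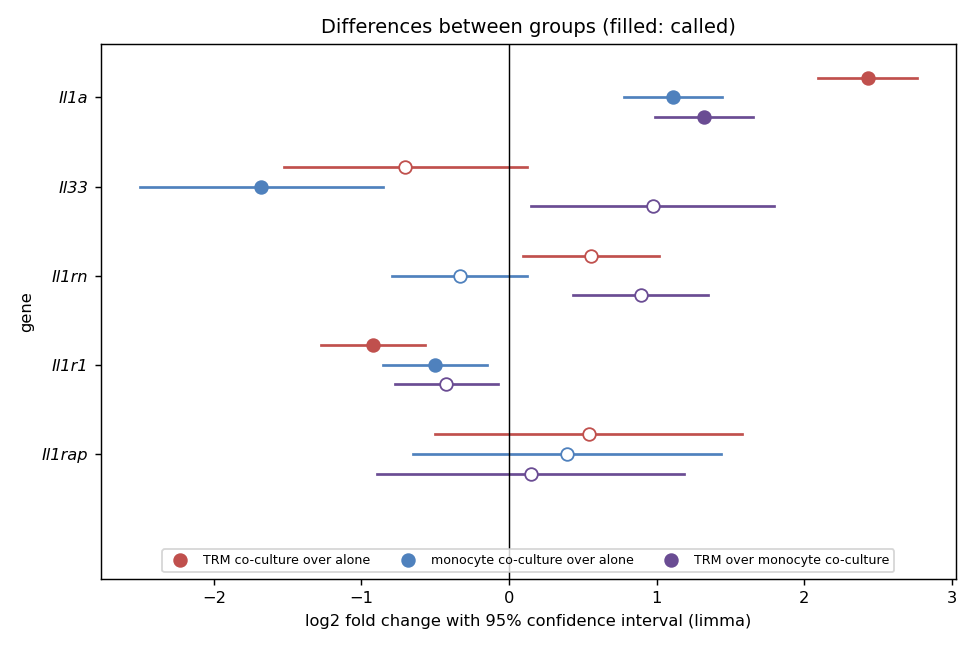
Log2 difference of each analysed member with its 95% confidence interval from limma, for TRM co-culture over alone, monocyte co-culture over alone, and TRM over monocyte co-culture; filled points were called at an adjusted p under 0.05. Il1a lies to the right of 0 in all 3 comparisons, and Il1r1 lies to the left in all 3, called in the first and second.

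The authors' deposited table for TRM co-culture over alone gave Il1a a log2 change of 2.41 with a false discovery rate (FDR) of 2.28e-44, and Il1r1 -0.96 with an FDR of 2.05e-06. In the authors' deposited table Il33 had -0.71 (FDR 0.0228), under 0.05 where the limma adjusted p was not, and Il1rn had 0.58 (FDR 0.0504). That table holds 11085 genes and a likelihood ratio score, so its FDR and the limma adjusted p come from unlike tests. For monocyte co-culture over alone, the authors' deposited table gave 1.10 for Il1a (FDR 9.26e-07), -1.50 for Il33 (FDR 2.31e-05), -0.54 for Il1r1 (FDR 0.0219) and -0.36 for Il1rn (FDR 0.159).

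The order of the groups differed between genes. For Il1a it ran TRM, monocyte, alone, and each neighbouring pair was called. Il1r1 ran in the opposite order, and of its neighbours the monocyte co-culture and tumour cells alone were called apart, whereas TRM and monocyte co-cultures were not. Il33 ran alone, TRM, monocyte, with neither neighbouring pair called. Il1rn ran TRM, alone, monocyte, again with neither pair called.

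Levels of different genes were compared per kilobase of exon sequence, with length taken as the union of all annotated exons of a gene. These lengths were 1974 bases for Il1a, 5535 for Il1rn and 6363 for Il1r1. Which transcripts were expressed was not tested, and the order between genes depends on the lengths used. With TRMs, Il1a had 122 ± 10.4 CPM per kb (SD, n = 3), above 97.8% of 12243 genes. With monocytes it had 49.5 ± 9.15 CPM per kb (above 92.2%), and alone 22.7 ± 1.499 CPM per kb (above 81.9%). Il1a was thus the most abundant analysed member per length in both co-cultures. In tumour cells alone Il1r1, at 26.9 ± 5.17 CPM per kb, and Il1a did not differ beyond their spread. With TRMs Il1rn, at 17.1 ± 5.72 CPM per kb, and Il1r1, at 14.1 ± 1.49 CPM per kb, followed Il1a. The SD ranges of Il1rn and Il1r1 overlapped. With monocytes Il1r1 followed Il1a at 18.9 ± 2.26 CPM per kb, above Il1rn at 8.93 ± 1.09 CPM per kb. Il33 had 6.00 ± 1.28 CPM per kb with TRMs, 3.45 ± 1.83 with monocytes and 9.70 ± 1.497 alone. In tumour cells alone Il1rn was at 11.3 ± 1.39 CPM per kb, and the SD ranges of Il33 and Il1rn overlapped. Il1rap was at 0.313 CPM per kb with TRMs, 0.261 with monocytes and 0.208 alone, above at most 8.15% of genes.

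The balance of ligand to antagonist and receptor RNA is given as ratios of CPM per kb within each library, as a description with no test. The size of each ratio depends on the exon lengths used. Before division by length, Il1rn was above Il1a in tumour cells alone (62.4 against 44.8 CPM) and below it in both co-cultures. Il1a over Il1rn was 5.78, 7.23 and 9.68 in TRM replicates 1 to 3, 4.95, 6.25 and 5.36 in monocyte replicates 1 to 3, and 2.05, 1.90 and 2.12 in tumour cells alone. All 6 co-culture libraries had a higher ligand to antagonist ratio than any library of tumour cells alone, and the TRM and monocyte libraries overlapped. Il1a over Il1r1 was 9.66, 9.47 and 7.20 with TRMs, 2.28, 2.59 and 2.97 with monocytes, and 0.735, 1.15 and 0.732 alone. On this ratio the 3 groups were apart. Il1rn over Il1r1 was 1.67, 1.31 and 0.744 with TRMs, 0.460, 0.415 and 0.554 with monocytes, and 0.359, 0.605 and 0.345 alone. The TRM libraries were highest, and the monocyte libraries lay inside the range of tumour cells alone.

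**Figure D3:**
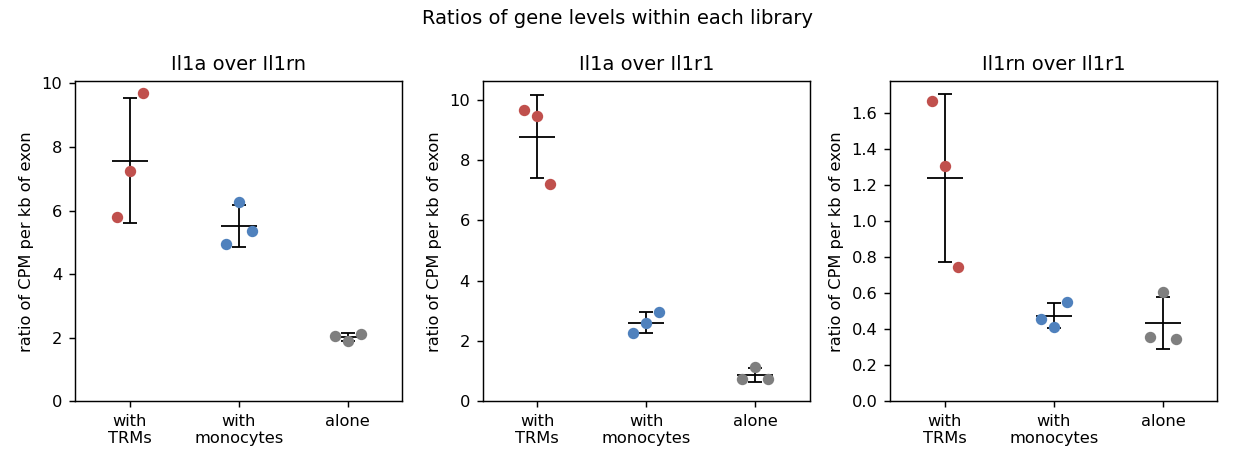
Ratio of CPM per kb between pairs of IL-1 genes in each library (linear axes from 0), with points for libraries and bars for the mean and SD of 3 libraries in the TRM co-culture, monocyte co-culture and tumour cells alone. Il1a over Il1r1 runs from 7.20 to 9.66 with TRMs, 2.28 to 2.97 with monocytes and 0.732 to 1.15 alone.

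The genes whose log2 levels followed each member most closely over the 9 libraries were found by Pearson's r, as a description. For Il1a they were Higd1a (r = 0.980), a mitochondrial protein induced in low oxygen, Efna1 (0.980), a ligand of Eph receptors, and Pgm1 (0.973), a phosphoglucomutase. Pgm1 averaged 310.3 ± 44.1 CPM with TRMs, 164 ± 2.58 CPM with monocytes and 71.9 ± 5.87 CPM alone (SD, n = 3 each), the same order as Il1a. For Il1r1 they were Akr1c14 (0.966), an aldo-keto reductase, Kitl (0.959), the ligand of the receptor KIT, and Sema3c (0.952), a secreted semaphorin. Il33 was followed most closely by the integrin gene Itgb8 (0.990), the actin-nucleation gene Actr3 (0.985) and the dynein gene Dnah2 (0.976). Il1rn was followed by Acap1 (0.950), Dlx3 (0.942) and Mst1r (0.930), and Il1rap by Atg7 (0.927), Mpi (0.875) and Gdf11 (0.874). The search passed over members, predicted genes, genes of the X and Y chromosomes and names not matched to a single annotated gene. All these values share the groups, libraries and depths, and the highest of so many correlations is large by selection.

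Of 19 other ligand and receptor genes of the IL-1 family, 5 were analysed. Il18rap alone was called, with TRMs and with monocytes, 20% of the 5 in each comparison against 18.4% and 27.3% of all genes. Il18rap, the accessory chain of the IL-18 receptor, averaged 37.8 ± 8.35 CPM with TRMs, 52.5 ± 10.4 CPM with monocytes and 16.3 ± 3.65 CPM alone (SD, n = 3 each). It was 2.32-fold higher with TRMs (log2 1.22, limma adjusted p = 0.0024) and 3.24-fold higher with monocytes (log2 1.69, limma adjusted p = 0.000176), in each case also without any single library. The 5 genes had median log2 differences of -0.15 with TRMs and -0.22 with monocytes. Its partner chain Il18r1 had log2 differences of -0.15 with TRMs and -1.11 with monocytes (limma adjusted p = 0.843 and 0.0664). Il18, Il18bp and Sigirr were not called in any comparison. Il1b, the other classical IL-1 ligand gene, was not analysed here.

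Among 22 genes of IL-1 processing and release, 14 were analysed. With TRMs 4 were higher and 1 lower, 35.7% of the 14 against 18.4% of all genes. With monocytes 5 were higher and 2 lower, 50% against 27.3%. With TRMs against monocytes limma called 0 of 14, as did edgeR, DESeq2 and voom, and 1 had an unadjusted p under 0.05. The median log2 difference was 0.12 with TRMs and 0.18 with monocytes. The calpain subunits rose: Capn2 averaged 338 ± 28.7 CPM with TRMs, 297 ± 18.0 CPM with monocytes and 176 ± 11.8 CPM alone (SD, n = 3 each; log2 0.94 and 0.75, limma adjusted p = 0.000231 and 0.000715). Capn1 rose by log2 0.67 with TRMs and 0.58 with monocytes, and the small subunit Capns1 by 0.54 and 0.34 (limma adjusted p between 0.00314 and 0.0486). Gsdmd, the pore-forming gasdermin D, was at 7.71 ± 3.28 CPM with TRMs, 8.16 ± 3.52 CPM with monocytes and 17.4 ± 5.42 CPM alone (SD, n = 3 each; limma adjusted p = 0.0345 and 0.0351). With TRMs the rises of Capn1, Capn2 and Capns1 held without any single library, and with monocytes those of Capn1 and Capn2 did. The calls of Gsdmd in both comparisons, and of Capns1, Casp8 and Nlrc4 with monocytes, were each lost without at least 1 library.

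Of 37 receptor signalling genes, 34 were analysed and few were called: 2 higher and 2 lower with TRMs (11.8%), 1 higher and 4 lower with monocytes (14.7%), both shares under those of all genes. Limma, edgeR, DESeq2 and voom each called 0 of 34 between TRM and monocyte co-cultures, and 1 had an unadjusted p under 0.05. The median log2 difference was -0.05 with TRMs and -0.10 with monocytes. Irak2, a kinase of the receptor complex, averaged 134 ± 16.04 CPM with TRMs, 145 ± 22.3 CPM with monocytes and 258 ± 27.997 CPM alone (SD, n = 3 each). It fell by 0.95 with TRMs and by 0.84 with monocytes on the log2 scale (limma adjusted p = 0.000927 and 0.00147), and both calls held without any single library. Traf6, a ubiquitin ligase downstream of the IRAK kinases, was at 61.3 ± 3.81 CPM with TRMs, 54.1 ± 1.18 CPM with monocytes and 84.3 ± 3.999 CPM alone (SD, n = 3 each; limma adjusted p = 0.0253 and 0.00281). The adaptor gene Myd88 was at 32.7 ± 4.12, 32.9 ± 5.46 and 34.1 ± 1.43 CPM in the same groups (SD, n = 3 each), and Myd88, Irak1 and Irak4 were not called in any comparison. Map3k3, a MAP kinase kinase kinase, was higher with monocytes (log2 0.63, limma adjusted p = 0.00781). Nfkbia, the inhibitor of NF-kappaB, was higher with TRMs (log2 0.51, limma adjusted p = 0.0354), and Nfkbiz, a nuclear regulator of NF-kappaB, was lower with monocytes (log2 -0.72, limma adjusted p = 0.0306). Scaled by library totals, Nfkbia and Tnip1 were no longer called (limma adjusted p = 0.0596 and 0.0927), which left 0 of 34 higher with TRMs. The calls of Nfkbia, Tnip1 and Traf6 with TRMs, and of Nfkbiz and Peli1 with monocytes, were each lost without at least 1 library.

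Of 37 genes known to respond to IL-1, 32 were analysed. With TRMs 10 were higher and 1 lower, 34.4% of the 32 against 18.4% of all genes. The lower count moved with the processing: it was 5 beside 10 higher when values were scaled by library totals, and 4 beside 13 higher in DESeq2. With monocytes 7 were higher and 5 lower, 37.5% against 27.3%. Over the alternatives those counts ran from 5 to 8 higher and from 2 to 5 lower. When each library was left out in turn, 5 of the 7 higher and 2 of the 5 lower calls held every time. The calls of Il11 and Ptges, higher, and of Csf3, Ptgs2 and Tnf, lower, were each lost without at least 1 library. The median log2 difference of the 32 was 0.69 with TRMs and -0.04 with monocytes. Secreted proteases led the rises. Mmp10 averaged 49.6 ± 11.3 CPM with TRMs, 34.8 ± 7.76 CPM with monocytes and 6.60 ± 1.48 CPM alone (SD, n = 3 each; 7.52-fold and 5.30-fold, limma adjusted p = 7.82e-06 and 3.11e-05). Mmp3 averaged 345 ± 94.2 CPM with TRMs, 607 ± 216 CPM with monocytes and 31.1 ± 31.4 CPM alone (SD, n = 3 each; log2 3.91 and 4.69, limma adjusted p = 0.000166 and 3.61e-05). Mmp13 rose by log2 2.09 with TRMs and 1.93 with monocytes (limma adjusted p = 0.000166 and 0.000214). Csf2, which encodes the growth factor GM-CSF, averaged 85.8 ± 4.24 CPM with TRMs, 64.3 ± 4.64 CPM with monocytes and 27.5 ± 6.08 CPM alone (SD, n = 3 each; 3.16-fold and 2.37-fold, limma adjusted p = 3.13e-05 and 0.000168). Those 4 genes held their calls in both comparisons without any single library.

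Among the other 6 targets higher with TRMs were Ptges, a prostaglandin E synthase, and Cebpd, a transcription factor (log2 1.55 and 0.90, limma adjusted p = 0.000111 and 0.00389). The remaining 4 were Mmp9, Cxcl3, Lif and Nos2 (limma adjusted p = 0.00237, 0.00316, 0.0113 and 0.0179). Of the 10 higher calls with TRMs, 8 held without any single library. Those of Lif (highest adjusted p 0.0533) and Nos2 did not, and Nos2 passed the filter on low values only through its TRM libraries. Ptges was also higher with monocytes (log2 0.61, limma adjusted p = 0.0265), a call lost without at least 1 library. Other targets were lower or not called. The chemokine gene Ccl20 averaged 19.8 ± 5.31 CPM with TRMs, 21.1 ± 3.94 CPM with monocytes and 48.0 ± 12.01 CPM alone (SD, n = 3 each; log2 -1.28 and -1.17, limma adjusted p = 0.00263 and 0.00326). Cxcl5, a neutrophil chemokine, was lower with monocytes (146 ± 37.5 CPM against 408 ± 74.8 CPM alone, SD, n = 3 each, limma adjusted p = 0.00151). Cxcl1, a chemokine of the same family, had log2 differences of 0.06 with TRMs and -0.19 with monocytes (limma adjusted p = 0.878 and 0.541). Between TRM and monocyte co-cultures 2 targets were called, both higher with TRMs, which is 6.25% of the 32 against 0.398% of all genes. Both calls were lost without at least 1 library. Ptges averaged 192 ± 24.9 CPM with TRMs, 101.03 ± 24.6 CPM with monocytes and 65.5 ± 9.46 CPM alone (SD, n = 3 each). Csf3, which encodes the growth factor G-CSF, averaged 32.8 ± 3.06 CPM with TRMs, 14.0 ± 2.62 CPM with monocytes and 22.1 ± 4.54 CPM alone (SD, n = 3 each). As a whole the 32 targets had summed levels of 3956 to 5041 CPM with TRMs, 3604 to 4787 CPM with monocytes and 4087 to 4759 CPM alone, which overlapped.

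**Figure D4:**
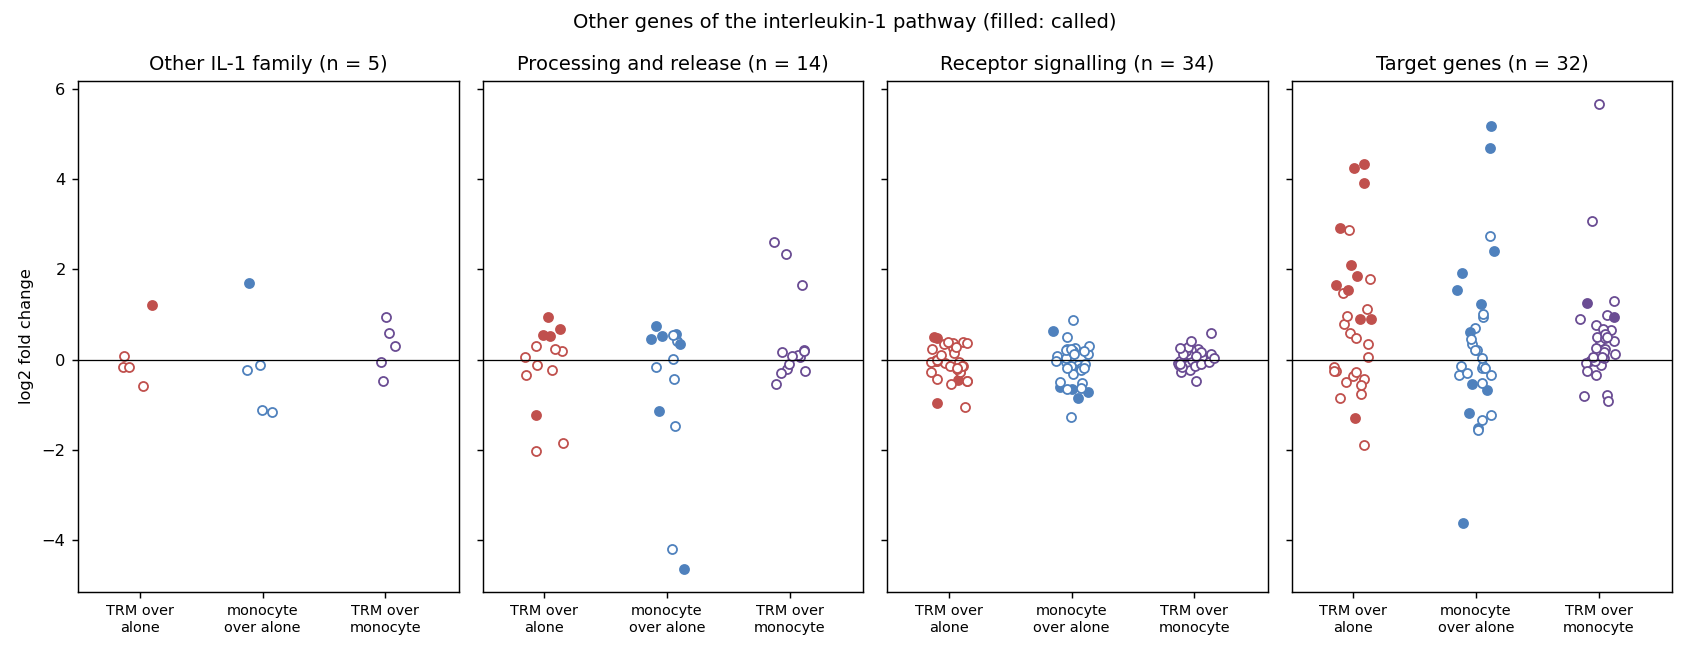
Log2 difference of each analysed gene in the lists of other IL-1 family, processing, receptor signalling and target genes, for TRM co-culture over alone, monocyte co-culture over alone and TRM over monocyte co-culture; filled points were called at an adjusted p under 0.05. In the target list 10 points are filled above 0 and 1 below with TRMs, 7 above and 5 below with monocytes, and 2 above for TRM over monocyte co-culture.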

How the data were processed

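Per the submitters' processing notes, STAR 2.5, edgeR and the mm10 build were used. No source used here names the counting tool. The deposited values are a normalised signal in CPM: 100% of them gave whole reads within 1e-06 of a read after 0.5 read and the scaling were removed. The authors' deposited tables of comparisons hold log2 fold changes, a likelihood ratio score and p-values, per the file headers. Groups came from the labels.

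Genes were filtered on recovered reads (edgeR's filterByExpr, minimum count 10, minimum total 15), which removed 13 genes. Log2 values were fitted with limma 3.58.1 in R 4.3.3 (variance prior following the mean) to the 9 libraries together, with a mean for each group and 6 residual degrees of freedom. Tests were two-sided, for 3 contrasts. edgeR 4.0.16, DESeq2 1.42.0, voom, other scalings, filters and an added value of 1, a replicate block and fits without each library were alternatives. Added reads make folds of low genes understated. Replicates differed by more than sampling noise (chi-square per gene 21.1 to 90.6). Positions and exon lengths come from GENCODE M21.

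The members and lists were chosen with earlier results of these data known, so counts over them are descriptions. Named genes were all members, up to 5 genes per list by smallest p, every other IL-1 family gene analysed, some preset genes and the 3 most similar genes for each member. Some named by this rule are not reported here. Peli1, Tnip1, Nlrc4, Gsdmd, Ccl20, Cxcl3, Cxcl5, Csf3, Cebpd, Il11, Lif, Mmp9, Nos2, Ptgs2, Tnf, Cd14, Lyz2, Itgam and Itgax were named after their values were seen. Neutrophil markers (8 listed) were not analysed here. The fibroblast and endothelial list (4 of 11 analysed) summed to 7.53 to 14.3 CPM with TRMs, 4.29 to 9.89 CPM with monocytes and 5.25 to 9.41 CPM alone, with 0 called by limma, edgeR, DESeq2 or voom and 0 at an unadjusted p under 0.05. The fit was tested on simulated counts: with 12326 genes, 60% of 2-fold and 81% of 4-fold changes were called for TRM co-culture against alone, 55% and 85% for monocyte co-culture against alone, and 57% and 83% between TRM and monocyte co-cultures. Unchanged genes called numbered 2, 8 and 6 in the same order. Far fewer genes were changed in each simulation than were called against tumour cells alone in the data, so these shares may not carry over.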

Additional observations from a re-analysis of the deposited data

Results flagged for a closer look

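Among the members and the genes of the lists, 3 differed between TRM and monocyte co-cultures by a direct test of that difference. Over all 12326 genes, 49 were called in that comparison. Il1a was higher with TRMs by 1.3202 on the log2 scale (limma adjusted p = 0.00573), and the call was lost without TRM replicate 2 (limma adjusted p = 0.0509). Csf3 was higher with TRMs by 1.245 (limma adjusted p = 0.0272), and leaving out TRM replicate 1, 2 or 3 or monocyte replicate 2 lost the call (highest adjusted p 0.131). Ptges was higher with TRMs by 0.9466 (limma adjusted p = 0.0454). Its call failed without alone replicate 1 or 3, any TRM replicate, or monocyte replicate 1 or 2 (highest adjusted p 0.179). It also failed in edgeR (adjusted p = 0.0539), and over the alternatives other than leaving out a library the highest adjusted p was 0.0625.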

How the results depend on the processing

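Of 285 member values recomputed under alternatives, 273 kept their direction and their side of the threshold, 5 newly passed it, 6 no longer did, and 1 changed sign: Il1rap between TRM and monocyte co-cultures was -0.1852 without TRM replicate 1 (adjusted p = 0.954, not called in either fit; range without each library -0.1852 to 0.57). DESeq2 called Il1rn with TRMs against alone (log2 0.593, adjusted p = 0.0437) and between TRM and monocyte co-cultures (0.9463, 0.00406). Limma fitted to only the groups compared called Il33 with TRMs (-0.7033, 0.0274) and lost Il1r1 with monocytes (-0.4995, 0.0558). Leaving out each library in turn, Il1rn with TRMs ranged over 0.3144 to 0.8071, Il33 with TRMs over -0.8721 to -0.5878, Il1r1 with monocytes over -0.6673 to -0.3937 and Il1a between TRM and monocyte co-cultures over 1.1568 to 1.4138. Called genes then numbered 1217 to 2594 with TRMs against alone (2262 with all libraries), 2240 to 3530 with monocytes (3366) and 0 to 134 between TRM and monocyte co-cultures (49). That last count was 0 in limma without TRM replicate 2 (1174 at an unadjusted p under 0.05), and there 0 in edgeR and 179 in DESeq2, fits added after the data were seen. With all libraries it was 329 with DESeq2, 86 with voom and 75 with 1 added before the log. The cause of these moves was not tested.

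Scaling by library totals moved the split with TRMs to 1003 higher and 1302 lower, against 1257 and 1005, and between TRM and monocyte co-cultures to 35 and 16, against 40 and 9. Under both other scalings the 5 analysed members kept their directions. The target genes called with TRMs split 10 higher and 5 lower under library totals and 13 and 4 in DESeq2, against 10 and 1. Mmp9 lost both calls in voom. With a replicate block, 79 genes were called between TRM and monocyte co-cultures and no member call changed. The labels do not say what a replicate number shares. With group means removed, 5 of 9 same-number pairs correlated over 0.1, and 4 of 9 libraries correlated best with their own number in both other groups. Same-number pairs ran from -0.0246 to 0.429, and the 18 other pairs from -0.401 to 0.265. Of those 18, only alone replicate 2 with TRM replicate 3 (0.265) was over 0.1, and the next highest was 0.0879. Whether a number marks a shared culture was not tested, and the main fit held no replicate block. Il1rap, at 44 to 82 reads, is the member most limited by depth.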

Other observations

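Il1r1 lies in a block of receptor genes on chromosome 1, and its neighbours did not all move as it did. This block was chosen after values were seen. Within 500000 bases of the stretch from Il1r1 to Il18rap, 7 genes were analysed. While Il1r1 was lower in both co-cultures, Il18rap (chr1:40515362-40551705) was higher in both, and so was Map4k4, a kinase gene upstream, at 122 ± 5.17 CPM with TRMs, 101.1 ± 3.94 CPM with monocytes and 72.7 ± 11.8 CPM alone (SD, n = 3 each; limma adjusted p = 0.00227 and 0.0200). Slc9a2, a sodium-proton exchanger gene downstream, was at 24.4 ± 3.55 CPM with TRMs, 16.4 ± 3.71 CPM with monocytes and 8.70 ± 2.45 CPM alone (SD, n = 3 each; limma adjusted p = 0.00125 and 0.0163). Il18r1, Slc9a4 and Mfsd9 were not called in any comparison.

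Nos2, the inducible nitric oxide synthase and an IL-1 target, was at 4.87 ± 0.479 CPM with TRMs, 0.177 ± 0.202 CPM with monocytes and 0.245 ± 0.0475 CPM alone (SD, n = 3 each). It was higher with TRMs than alone (limma adjusted p = 0.0179), a call lost without at least 1 library (highest adjusted p 0.0944). Nos2 passed the filter on low values (0.468 CPM) only through its TRM libraries. It had 6, 5 and 6 reads alone and 7, 2 and 0 with monocytes, so its p-values are given as a description. With TRMs against monocytes the limma adjusted p was 0.0519. 

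Of the 8 analysed epithelial markers, 3 were lower with monocytes than alone (37.5%, against 27.3% of all genes) and 1 with TRMs (12.5%, against 18.4%). Cdh1, which encodes E-cadherin, was at 869 ± 258 CPM with monocytes and 1649.85 ± 97.6 CPM alone (SD, n = 3 each; limma adjusted p = 0.00173), and Cldn7, a claudin, at 158 ± 70.1 CPM and 318 ± 24.0 CPM in the same groups (limma adjusted p = 0.00438). The third, Cldn4, another claudin, was at 739 ± 258 CPM with TRMs, 574 ± 148 CPM with monocytes and 1185 ± 208 CPM alone (SD, n = 3 each), and was lower with both (limma adjusted p = 0.0477 and 0.00472). The TRM call was lost without at least 1 library. For Cdh1 and Cldn7 with TRMs neither passed the test (limma adjusted p = 0.401 and 0.103). Tested directly, the TRM and monocyte co-cultures were not called apart for Cdh1, Cldn7 or Cldn4 (limma adjusted p = 0.107, 0.447 and 0.641).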
